A study of Mus musculus with 16 samples.

Results

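*Vmn2r19* to *Vmn2r27* form a cluster of type 2 vomeronasal receptor genes (V2Rs) on mouse chromosome 6. They were chosen by their symbols in the count and RPKM tables, whose values are reads scaled by gene length and library size. All 9 symbols were listed, among 121 *Vmn2r* genes and 24407 genes in all, and 8 of the 9 passed the filter on low counts. *Vmn2r21* did not pass. RNA was measured in the vomeronasal organ (VNO) of 12-week-old mice from generation 88 of a selection experiment on an outbred Hsd:ICR background. The 4 High Runner (HR) lines, lines 3, 6, 7 and 8, were bred for voluntary wheel running, and the 4 Control lines, lines 1, 2, 4 and 5, were bred without that selection. Each line gave 1 male and 1 female library, each from the pooled VNOs of 3 mice, which made 16 libraries of 4 per linetype and sex. The 2 libraries of a line share its ancestry, so the line is the unit that was bred, and tests over single libraries treat these relatives as separate samples.

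V2Rs are G-protein-coupled receptors with a large extracellular domain, and they sit on the sensory neurons of the basal layer of the VNO, which signal through the G protein subunit Gαo. They detect peptides, proteins and other cues of social partners and other animals. A basal neuron usually expresses a single receptor of the large V2R families together with a co-receptor of the *Vmn2r1* to *Vmn2r7* group. In pooled tissue, fewer neurons that express a receptor and less RNA per neuron cannot be told apart.

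Counts on genes ranged from 15998552 to 70875276 per library. Values per library are CPM, counts scaled to a common library size after TMM scaling. *Omp*, which marks mature sensory neurons, lay between 1266 and 2596 CPM, and *Gnao1*, which encodes Gαo, between 305 and 510 CPM. *Trpc2*, the transduction channel of these neurons, was listed at 0 in every count column and at 259 to 417 RPKM. A count of 0 in these tables therefore does not show that a gene is silent. Of the listed markers of main olfactory neurons, the channel gene *Cnga2* was at 0 to 5.20 CPM, *Gnal* at 3.93 to 18.5 CPM and *Adcy3* at 44.1 to 74.2 CPM. Counts hold only reads that match the reference genome at 1 place with no mismatch, and sequence differences between the lines and the reference were not tested.

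The 9 genes lie within 923.5 kb, at chr6:123308333-124231856 of GRCm38 in GENCODE M21, and each is annotated as protein coding. *Vmn2r19*, *Vmn2r23*, *Vmn2r24* and *Vmn2r26* are on the plus strand and the other members on the minus strand. *Vmn2r19* (ENSMUSG00000091260) opens the cluster at chr6:123308333-123336537, and *Vmn2r23* (ENSMUSG00000091620) lies in its middle at chr6:123702670-123747657. Between them lie *Vmn2r20* (chr6:123373513-123418116), *Vmn2r21* (chr6:123492508-123533406) and *Vmn2r22* (chr6:123609758-123650725). Past *Vmn2r23* lie *Vmn2r24* (chr6:123778879-123824912), *Vmn2r25* (chr6:123821646-123853463), *Vmn2r26* (chr6:124024568-124065806) and *Vmn2r27* (chr6:124189756-124231856). The annotated models of *Vmn2r24* and *Vmn2r25* overlap on opposite strands by 3267 bases, of which 2061 are exonic. Whether strand was used in counting is not given in the sources used here, so reads from that overlap are uncertain. The span holds 17 other annotated genes, among them 4 *Vmn2r* pseudogenes, and none of the 17 is listed in the count tables.

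Coding sequences of 2547 to 2571 bases were compared between members. *Vmn2r20*, *Vmn2r21* and *Vmn2r22* were near copies, with identities of 97.7% to 99.5%. *Vmn2r25* and *Vmn2r26* were 97.2% identical, and *Vmn2r23* was nearest to *Vmn2r24* at 89.8%. *Vmn2r27* was the farthest from the rest, at 84.6% to 85.3%. The share of 75-base coding words found in no other gene, the length of a read, was 95.3% to 97.4% in *Vmn2r19*, *Vmn2r23*, *Vmn2r24* and *Vmn2r27*. It was 68.6% in *Vmn2r26*, 51.1% in *Vmn2r25*, 44.7% in *Vmn2r22*, 28.1% in *Vmn2r20* and 2.1% in *Vmn2r21*. Of the 2491 coding words of *Vmn2r25*, 827 are shared with *Vmn2r24*, whose annotated model overlaps it, and such words need not have a second location. Reads with more than 1 location were dropped, so the values of the near copies *Vmn2r20*, *Vmn2r21* and *Vmn2r22*, and of *Vmn2r25* and *Vmn2r26*, are uncertain as levels.

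RefSeq promoter windows, from 250 bases before to 50 bases after the annotated start, matched 8 members by symbol. They are shown because the 8 windows share a run of 15 bases. Each stretch below is read 5′ to 3′ on the strand of its gene, with GRCm38.p6 positions and the shared run in capitals.
*Vmn2r19*, chr6:123308191-123308220, plus strand: aggacaaAACAATGCTTTATAAacttgatc
*Vmn2r20*, chr6:123418181-123418210, minus strand: aggacaaAACAATGCTTTATAAcctcgatt
*Vmn2r22*, chr6:123650755-123650784, minus strand: aggaccaAACAATGCTTTATAAcctcgatt
*Vmn2r23*, chr6:123702671-123702700, plus strand: aggacaaAACAATGCTTTATAAacttgacc
*Vmn2r24*, chr6:123778823-123778852, plus strand: agaagaaAACAATGCTTTATAAtctcatcc
*Vmn2r25*, chr6:123853299-123853328, minus strand: aggacacAACAATGCTTTATAAccttgatc
*Vmn2r26*, chr6:124024609-124024638, plus strand: aggacacAACAATGCTTTATAAccttgatc
*Vmn2r27*, chr6:124231893-124231922, minus strand: aggacaaAACAATGCTTTATAAatttgatc
The run AACAATGCTTTATAA, searched on both strands, was found in 8 of 27025 windows (0.03%), which are these 8, and in 0 of the 108 windows of other *Vmn2r* genes. It contains the shorter run TTATAA, which 5.887% of all windows hold. It begins 131 to 143 bases before the RefSeq start, but in the GENCODE models it lies past the annotated start in *Vmn2r23*, *Vmn2r25* and *Vmn2r26*. The run was found by comparing the members, so its presence in all 8 is how it was chosen. A given run of 15 bases is seldom met by chance, so its absence from the other windows was also likely beforehand.

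The receptors that differed most among lines were *Vmn2r19* and *Vmn2r23*, and they did so in opposite directions. In the Control lines, *Vmn2r19* was at 1.13 CPM in males of line 1, against 15.5, 11.5 and 13.3 CPM in males of lines 2, 4 and 5. Control females gave 0.846 CPM in line 1 and 14.7, 11.2 and 20.1 CPM in lines 2, 4 and 5. In the HR lines, males gave 0.780 CPM in line 3 and 18.2, 19.5 and 13.9 CPM in lines 6, 7 and 8, and females 0.918, 19.8, 20.05 and 16.3 CPM in the same order. Control line 1 and HR line 3 thus lay below the other 12 libraries, in both sexes and in a line of each linetype. These 4 libraries held 25 to 80 *Vmn2r19* reads, and the others 286 to 952.

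*Vmn2r23* was high in the same 2 lines. In Control males it was at 35.5 CPM in line 1 and at 1.12, 0.74 and 0.67 CPM in lines 2, 4 and 5. In Control females it was at 40.3 CPM in line 1 and at 1.597, 0.960 and 0.765 CPM in the other lines. In HR males line 3 had 11.3 CPM and lines 6, 7 and 8 had 1.55, 1.46 and 1.40 CPM, and in HR females the values were 16.4, 1.31, 0.93 and 1.10 CPM. The libraries of line 1 lay above those of line 3, and both lay above the other 12 libraries with no overlap. Its reads numbered 2509 and 2908 in line 1, 479 and 448 in line 3, and 12 to 60 elsewhere.

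**Figure D1:**
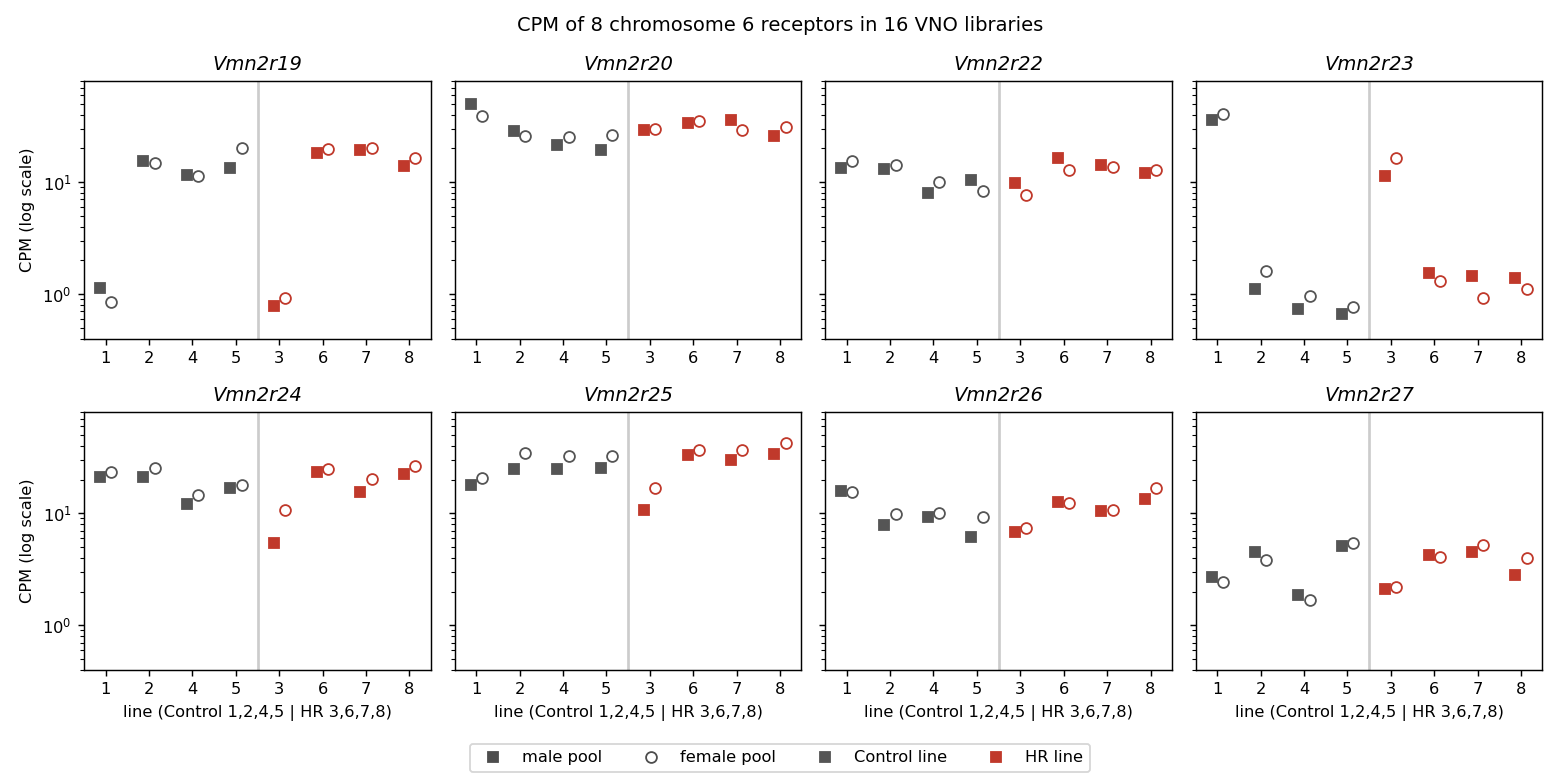
Each panel plots the CPM of 1 receptor on a log axis for the 4 Control lines (grey, left) and the 4 HR lines (red, right), with filled squares for male pools and open circles for female pools. *Vmn2r19* falls to 0.780 to 1.13 CPM in Control line 1 and HR line 3, the lines in which *Vmn2r23* rises to 11.3 to 40.3 CPM, while the other receptors vary less.

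The question of differences among lines was put to all genes with edgeR's quasi-likelihood F test on 8 lines with sex in the model. All 8 tested members were called at an adjusted *p* under 0.05, where 26.3% of the 16507 genes tested were called, as were 84 of the 110 other *Vmn2r* genes tested (76.4%). The difference between the highest and the lowest line was 5.73 on the log2 scale in *Vmn2r23* (52.9-fold, edgeR adjusted *p* = 2.02e-06). In *Vmn2r19* it was 4.55 (23.4-fold, edgeR adjusted *p* = 4.31e-06). Without Control line 1 the range of *Vmn2r23* was 4.27, still past the threshold. These were the fifth and the 17th largest among the 118 *Vmn2r* genes tested. The other members spanned 0.75 to 1.64, and the median over the members was 1.53, beside 1.29 in the other *Vmn2r* genes and 0.55 in all genes tested.

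Among the members with smaller ranges, *Vmn2r24* differed by 1.64 (edgeR adjusted *p* = 0.00218), *Vmn2r27* by 1.57 (0.00312), *Vmn2r25* by 1.49 (0.00028) and *Vmn2r26* by 1.14 (0.00336) on the log2 scale. Without HR line 3 the range was 0.88 for *Vmn2r24* and 0.97 for *Vmn2r25*, with edgeR adjusted *p* of 0.00286 and 0.00245. *Vmn2r20* differed by 0.96 (edgeR adjusted *p* = 0.0246) and *Vmn2r22* by 0.75 (0.0267). The calls of *Vmn2r20* and *Vmn2r22* depend on single lines or libraries. Without Control line 1 the adjusted *p* of *Vmn2r20* was 0.0979, and without the male library of that line it was 0.0759. *Vmn2r22* passed the threshold no longer, with adjusted *p* from 0.0506 to 0.0578, when the male or the female library of line 2, 7 or 8 was left out.

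The lines also differed within a linetype. Among the 4 Control lines all 8 tested members were called, beside 19.0% of genes, and among the 4 HR lines 7 of 8 were called, beside 17.8% of genes. The exception in the HR lines was *Vmn2r20*, whose adjusted *p* was 0.554.

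Each line was then set against the mean of the other 7, again over all genes. The 8 comparisons reuse the same libraries, and for 6 of the lines the mean of the others includes both line 1 and line 3. In Control line 1, 5 of 8 tested members were called, beside 3.73% of genes and 33 of the 110 other *Vmn2r* genes tested. *Vmn2r19* was 10.504-fold lower there (log2 -3.39 ± 0.18, SE) and *Vmn2r23* 24.1-fold higher (log2 4.59 ± 0.15), with edgeR adjusted *p* of 5.25e-06 and 1.54e-07. *Vmn2r20* (0.66) and *Vmn2r26* (0.67) were also higher and *Vmn2r25* (-0.54) lower on the log2 scale.

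In HR line 3, 6 of 8 tested members were called, beside 9.72% of genes and 31.8% of other *Vmn2r* genes. Of the 6 members, 5 were lower. *Vmn2r19* was 12.7-fold lower (log2 -3.66 ± 0.20, SE) and *Vmn2r23* 7.59-fold higher (log2 2.92 ± 0.16), each with an edgeR adjusted *p* of 8.15e-06. *Vmn2r24* (log2 -1.35), *Vmn2r25* (-1.14), *Vmn2r26* (-0.63) and *Vmn2r27* (-0.71) were lower as well. *Vmn2r20* was not called, with a log2 difference of -0.01 ± 0.13 (SE), and *Vmn2r22* was at -0.50 (edgeR adjusted *p* = 0.0515).

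**Figure D2:**
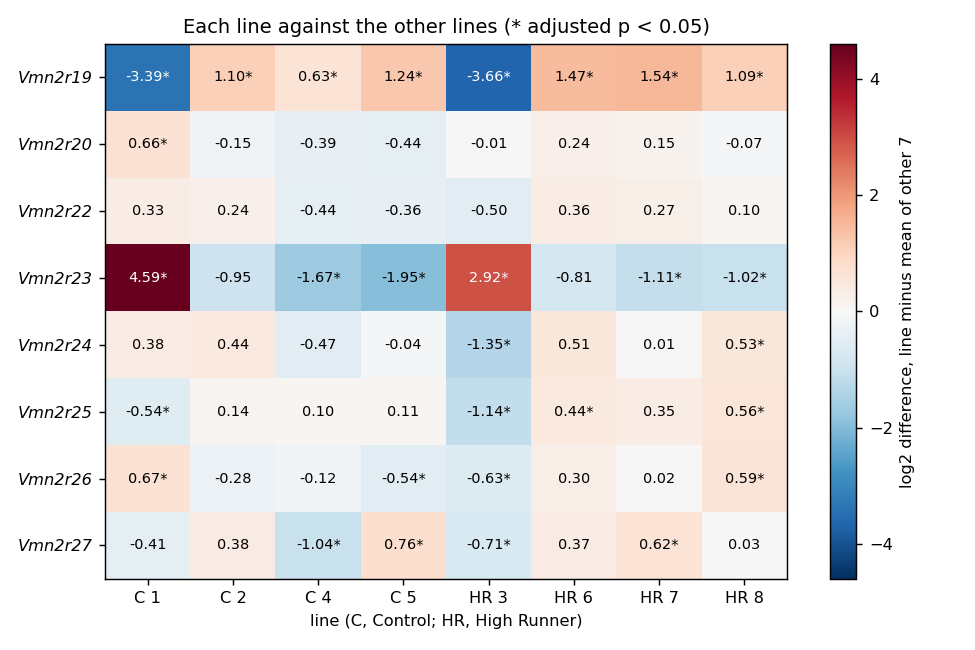
Log2 difference of each line (columns, C for Control) from the mean of the other 7 lines, for each tested receptor (rows), with red for higher and blue for lower and a star at an edgeR adjusted *p* under 0.05. The deepest cells are those of *Vmn2r19* (-3.39 and -3.66) and *Vmn2r23* (4.59 and 2.92) in Control line 1 and HR line 3.

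The remaining lines gave fewer or smaller calls. The mean that each was set against holds lines 1 and 3, which lowers it for *Vmn2r19* and raises it for *Vmn2r23*. Calls of these receptors in the remaining lines therefore partly restate lines 1 and 3. Control line 4, called as higher for *Vmn2r19*, had the lowest mean of the remaining lines, 11.4 CPM. In Control line 2 only *Vmn2r19* of the 8 members was called (log2 1.10), beside 3.8% of genes. In Control line 4, *Vmn2r19* (0.63), *Vmn2r23* (-1.67) and *Vmn2r27* (-1.04) were called, beside 7.78% of genes. In Control line 5, *Vmn2r19* (1.24) and *Vmn2r27* (0.76) were higher and *Vmn2r23* (-1.95) and *Vmn2r26* (-0.54) lower, beside 13.3% of genes. Of other *Vmn2r* genes, 20.9%, 45.5% and 30.9% were called in Control lines 2, 4 and 5. The share of members called was smaller in lines 2 and 4, at 12.5% and 37.5%, and larger in line 5, at 50.0%.

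In HR line 6, *Vmn2r19* (1.47) and *Vmn2r25* (0.44) were higher, beside 2.97% of genes. In HR line 7, *Vmn2r19* (1.54) and *Vmn2r27* (0.62) were higher and *Vmn2r23* (-1.11) lower, beside 3.64% of genes. In HR line 8, *Vmn2r19* (1.09), *Vmn2r24* (0.53), *Vmn2r25* (0.56) and *Vmn2r26* (0.59) were higher and *Vmn2r23* (-1.02) lower, beside 7.47% of genes. Of the 110 other *Vmn2r* genes tested, 21, 22 and 32 were called in HR lines 6, 7 and 8. Over all lines *Vmn2r22* was called in no line, and *Vmn2r20* in line 1 alone.

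*Vmn2r25* followed *Vmn2r19* in its low lines but with a smaller change. It was at 17.9 and 20.8 CPM in males and females of Control line 1 and at 10.7 and 16.7 CPM in those of HR line 3. The other 12 libraries lay between 24.8 and 42.6 CPM, above all 4. *Vmn2r24*, its neighbour on the opposite strand, was low in HR line 3 alone, at 5.48 and 10.65 CPM, and lay between 12.2 and 26.3 CPM in the other 14 libraries, Control line 1 included (21.3 and 23.2 CPM).

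*Vmn2r26*, the near copy of *Vmn2r25*, was at 15.9 and 15.5 CPM in Control line 1 and at 6.83 and 7.42 CPM in HR line 3, within a range of 6.10 to 16.7 CPM over all libraries. *Vmn2r27*, the last gene of the cluster, had 1.67 to 5.42 CPM. Its 3 highest libraries were the female pools of Control line 5 (5.42 CPM) and HR line 7 (5.16 CPM) and the male pool of Control line 5 (5.12 CPM), and its lowest were those of Control line 4 (1.87 and 1.67 CPM).

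Of the 3 near copies, *Vmn2r20* reached 49.4 and 39.2 CPM in Control line 1 and lay between 19.3 and 35.9 CPM elsewhere. *Vmn2r22* ranged from 7.60 to 16.5 CPM with the lines of both linetypes interleaved. *Vmn2r21* had 1 read in the male library of Control line 1 and 0 in the other 15, where a count of 0 allows up to 3 reads, or 0.0423 to 0.188 CPM before TMM scaling. This limit covers counting error only, and 51 of the 2485 coding words of *Vmn2r21* are found in no other gene.

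**Figure D3:**
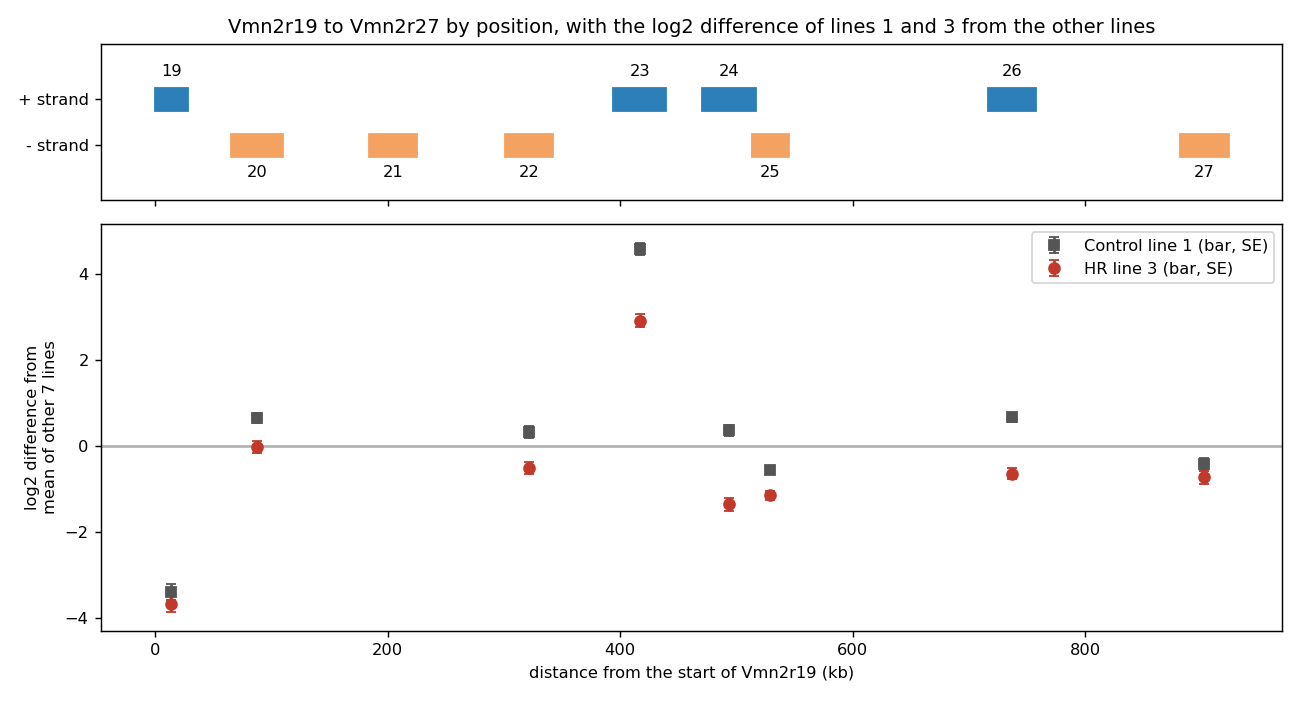
Upper panel, the 9 genes drawn to scale by their distance in kb from the start of *Vmn2r19*, numbered by symbol, with plus-strand genes in blue and minus-strand genes in orange. Lower panel, the log2 difference from the mean of the other 7 lines with its SE for Control line 1 (squares) and HR line 3 (circles), which lie together at *Vmn2r19* (-3.39 and -3.66) and on opposite sides of 0 at *Vmn2r26* (0.67 and -0.63).

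Between *Vmn2r19*, low in these lines, and *Vmn2r23*, high in them, lie *Vmn2r20*, *Vmn2r21* and *Vmn2r22*. In Control line 1, *Vmn2r20* was called as higher (log2 0.66, edgeR adjusted *p* = 0.015) and *Vmn2r22* was at 0.33 (0.219). In HR line 3 they were at -0.01 (0.955) and -0.50 (0.0515), the latter just outside the threshold. *Clec4d*, the nearest tested gene before the cluster at 33.1 kb, was low in all lines (line means 0.223 to 1.14 CPM) and was not called among lines (edgeR adjusted *p* = 0.385). *Cd163*, a macrophage receptor gene 72.8 kb past the cluster, was called among lines (log2 range 2.65, edgeR adjusted *p* = 0.0149). It was higher in HR line 3 (log2 1.79, edgeR adjusted *p* = 0.00648), at 2.89 CPM, and was at 1.14 CPM in Control line 1. The leukocyte marker *Ptprc* had line means of 13.6 CPM in HR line 3, 13.2 CPM in Control line 5, 12.9 CPM in HR line 6 and 7.71 CPM in Control line 1. The part of leukocytes in the line differences of *Cd163* was not tested.

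As a share of the reads of the 9 members, *Vmn2r23* made up 22.6% and 25.6% in Control line 1 (male and female library), 14.9% and 17.9% in HR line 3, and 0.635% to 1.23% in the other 12. *Vmn2r19* made up 0.537% to 1.03% in the 4 libraries of these lines and 10.57% to 16.7% in the others. The members together made up 1.75% to 2.69% of the reads on all *Vmn2r* genes. This share was highest in Control line 1 (2.63% and 2.69%) and lowest in HR line 3 (1.75% and 1.77%). Ranked by RPKM among 121 *Vmn2r* genes, *Vmn2r23* was 44th and 47th in Control line 1, 68th and 71st in HR line 3, and 100th to 110th elsewhere.

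Levels of different receptors were compared per length, by RPKM. In order of the mean log2(RPKM + 1) over lines, mean RPKM was 11.8 ± 2.83 (SD over 8 lines) for *Vmn2r20*, 10.05 ± 2.92 for *Vmn2r25*, 7.41 ± 2.32 for *Vmn2r24* and 4.23 ± 1.053 for *Vmn2r22*. It was 4.20 ± 1.21 for *Vmn2r26*, 4.44 ± 2.70 for *Vmn2r19*, 3.11 ± 5.55 for *Vmn2r23* and 1.37 ± 0.50 for *Vmn2r27*. None of the 7 pairs of neighbours in this order differed beyond the spread of lines after adjustment over the pairs (exact permutation of signs, two-sided, adjusted *p* from 0.109 to 0.914). With 8 lines the smallest exact *p* is 0.00781, which for a lone pair gives 0.0547 after adjustment, so a single pair could not pass. *Vmn2r24* exceeded *Vmn2r22* in 7 of 8 lines (log2 difference 0.65 ± 0.43 SD, exact *p* = 0.0156 before adjustment), and *Vmn2r25* exceeded *Vmn2r24* in 7 of 8 (0.40 ± 0.37 SD, exact *p* = 0.0312).

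**Figure D4:**
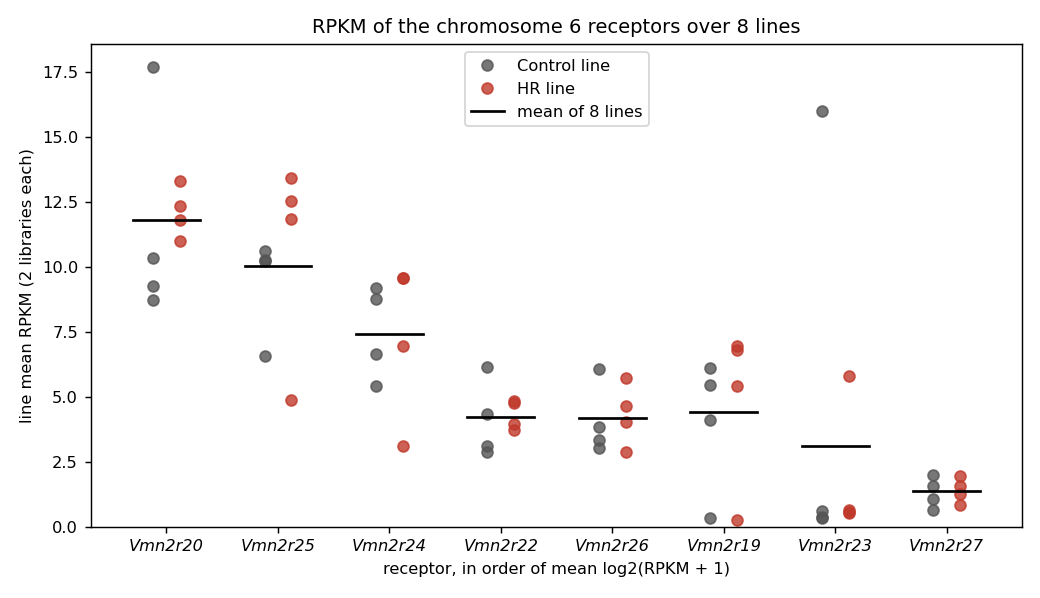
Line means of RPKM (points, grey for Control and red for HR lines) and the mean of 8 lines (bars) for each receptor, in order of mean log2(RPKM + 1). *Vmn2r23* has the widest spread, from 0.320 RPKM in Control line 5 to 16.03 RPKM in Control line 1.

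The RPKM values also depend on the share of each gene that reads can mark. Divided by the share of coding words found in no other gene, mean RPKM came to 42.1 for *Vmn2r20*, 9.45 for *Vmn2r22* and 7.61 for *Vmn2r24*, and the latter 2 changed places. No such value is given for *Vmn2r25*, which shares words with the overlapping model of *Vmn2r24*.

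Counts and RPKM did not keep the same ratio for *Vmn2r22*. After each library was scaled by 9517 genes with at least 200 counts in every library, its counts per RPKM were 2.29 to 2.36 kb where line 1 or line 3 was sampled (4 libraries) and 2.76 to 3.26 kb in the other 12. Hence the mean RPKM of *Vmn2r22* was 6.15 in Control line 1 and 4.34 in Control line 2, while the mean CPM were 14.4 and 13.6. For *Vmn2r23* the line means of this ratio stayed between 2.23 and 2.41 kb, and for *Vmn2r19* between 2.75 and 3.09 kb.

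Whether selection for running went with a change was asked by comparing the 4 HR with the 4 Control lines. None of the 8 tested members was called by edgeR's quasi-likelihood test, none had an unadjusted *p* under 0.05, and limma called none. By the edgeR test, 545 of all 16507 genes and 18 of the 110 other *Vmn2r* genes had an unadjusted *p* under 0.05. DESeq2 called none of 7 and gave no *p* for *Vmn2r23*. Of all genes tested, 0.0242% were called, which is 4 genes. *Vmn2r23* had line means of 4.44 ± 6.30 CPM among HR and 10.22 ± 18.5 CPM among Control lines (± SD, n = 4). Its fitted log2 difference was -1.23 ± 1.06 (SE, edgeR adjusted *p* = 0.9997). This difference depended on the 2 lines with high values, and was 2.18 without Control line 1 and -3.01 without HR line 3. On the RPKM values, limma gave -0.23 on the log2(RPKM + 1) scale and -0.09 on the log2(RPKM + 0.1) scale.

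*Vmn2r19* had line means of 13.7 ± 8.80 CPM among HR and 11.04 ± 7.06 CPM among Control lines (± SD, n = 4). The log2 difference was 0.32 ± 0.69 (SE), which was -0.08 without Control line 1. The other 6 members differed by -0.03 to 0.18 on the log2 scale with SE of 0.17 to 0.28. Both linetypes overlapped for every tested member, and the share of all genes that overlap was not computed. An exact two-sided permutation test on line means, which cannot give less than 0.0286 with 4 lines against 4, gave *p* from 0.6 to 0.971.

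**Figure D5:**
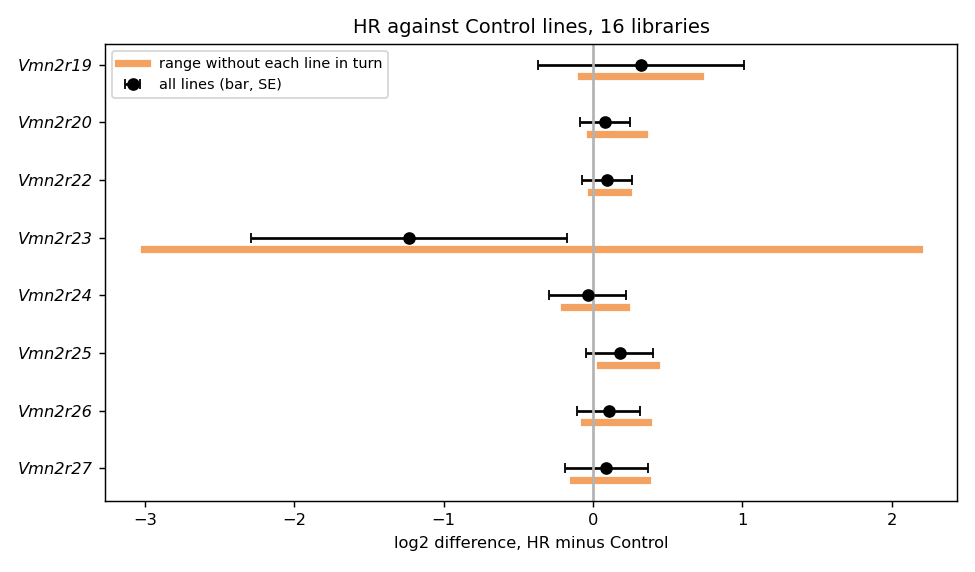
Log2 difference of HR minus Control lines for each tested receptor (points) with its SE (black bars), and the range of the difference when each line in turn was left out (orange bars). *Vmn2r23* moves from -3.01 to 2.18 with the line left out, and the ranges of all members but *Vmn2r25* cross 0.

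Sex differences were small. None of the 8 tested members was called between females and males by edgeR (no unadjusted *p* under 0.05, none called by limma, and none of 7 called by DESeq2, which gave no *p* for *Vmn2r23*), where 0.188% of genes were called. By the edgeR test, 1333 of all 16507 genes and 4 of the 110 other *Vmn2r* genes had an unadjusted *p* under 0.05. With line as a replicate block, which pairs both pools of 1 line, *Vmn2r25* alone was called. It was higher in females by 0.35 ± 0.06 (log2, SE, edgeR adjusted *p* = 0.0335), beside 0.545% of genes called. *Vmn2r25* and *Vmn2r24* were higher in the female library in 8 of 8 lines, and flipping the signs of the 8 line differences (exact permutation, two-sided) gave *p* = 0.00781 for each, the smallest possible. The share of all genes that reach this value was not computed. The block fit put *Vmn2r24* at 0.29 ± 0.09 (edgeR adjusted *p* = 0.156). The sexes are in separate tables and may have been separate sequencing runs, which cannot be told apart from sex.

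The members were set beside 32 tested genes listed for V2R neurons. None of the 32 was called between HR and Control lines or between the sexes. Among lines 20 of 32 were called, beside 26.3% of all genes tested, with a median log2 range of 0.80. By role, 4 of 7 co-receptor genes, 5 of 9 transduction genes, 10 of 10 genes listed under nonclassical MHC and 1 of 6 listed under identity were called among lines. The MHC list includes *B2m*, which is not an *H2-M* gene. The identity list includes *Omp* and *Meis2*, which are not particular to V2R neurons. *Omp* (log2 range 0.67, edgeR adjusted *p* = 0.0627) and *Gnao1* (0.52, 0.0631) were not. The 5 further genes with the smallest adjusted *p* were *H2-M1* (2.58), *H2-M10.1* (1.01), *Vmn2r1* (1.047), *H2-M10.5* (1.43) and *Kcnj3* (1.42), of which the *H2-M* genes encode MHC molecules of basal neurons.

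In Control line 1, 5 of the 32 genes were higher and 0 lower, and in HR line 3, 1 was higher and 6 lower. Of all genes tested, 3.73% were called in Control line 1 and 9.72% in HR line 3, in either direction. In HR line 3, where 5 members were lower, *Gnao1* was lower by 0.27 and *Omp* by 0.36 on the log2 scale than in the other lines, neither past the threshold (edgeR adjusted *p* = 0.0923 and 0.0975). The summed level of the 5 vomeronasal neuron markers had its lowest line mean there, 3015 CPM, and its highest, 4559 CPM, in HR line 8, with *Trpc2* at 0. Control line 5 lay close to HR line 3, at 3045 CPM. It had *Gnao1* at 338 CPM and *Omp* at 1642 CPM, beside 350 and 1605 CPM in HR line 3. The summed level of the gland and respiratory epithelium markers *Foxj1* and *Muc5b* ranged over line means from 10.7 CPM in HR line 8 to 101 CPM in Control line 5, with 85.8 CPM in HR line 3. Control line 1, with the same low *Vmn2r19* and high *Vmn2r23*, had 4036 CPM of the neuron markers and 30.1 CPM of these. Their part in the line differences of the members was not tested.

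Genes with the most similar pattern were ranked by Pearson's *r* of log2 CPM over 16 libraries, after the mean of each sex was removed. The libraries share lines and fall into separate groups for *Vmn2r19* and *Vmn2r23*, so these values are a description. *Vmn2r25* was nearest to *Vmn2r19* (*r* = 0.92, Spearman's rho = 0.68) and *Vmn2r19* to *Vmn2r25*, and they were the only members among the 3 nearest genes of another. *Vmn2r19* was followed by *Atp9b* (0.88, rho 0.56) and *Eef1e1* (0.85, rho 0.86), and *Vmn2r25* by *Tspyl5* (0.89, rho 0.79) and *Fgfr1op2* (0.83, rho 0.71). The ranking took the highest *r* and so leaves out opposite patterns, such as *Vmn2r19* with *Vmn2r23* (*r* = -0.94, rho -0.47). Nearest to *Vmn2r23* were *1700001L05Rik* (0.91, rho 0.76), *Pcdhb3* (0.89, rho 0.75) and *Pcdhb4* (0.87, rho 0.62).

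Nearest to *Vmn2r24* were *Itgb3bp* (0.92), *Pcdhgb7* (0.90) and *Vmn2r92* (0.89). *Vmn2r26* had *Hc* (0.89), *Vmn1r204* (0.88) and *Zkscan7* (0.88), and *Vmn2r27* had *Klhdc8a* (0.87), *Tc2n* (0.87) and *Gm10432* (0.87). For *Vmn2r20* they were *Etnk1* (0.85), *Gm13212* (0.84) and *Socs5* (0.83), and for *Vmn2r22* *Mgat5* (0.96), *Arhgef38* (0.96) and *Sh3rf1* (0.95).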

How the data were processed

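Total RNA from the VNOs of pooled mice was depleted of ribosomal RNA, and directional libraries were read from 1 end over 75 nucleotides. The authors aligned the reads to GRCm38 (mm10) with STAR 2.6.1d, without mismatches and without reads of several locations. The count tables hold the reads per gene as deposited by the authors, without normalization, and the counting tool, annotation and use of strand are not given in the sources used here. The RPKM tables were deposited by the authors as computed with Cuffdiff. Each table holds the 8 libraries of 1 sex, and columns were matched to lines by the sample titles. Every per-sample column was used.

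Counts were tested in R 4.3.3 with edgeR 4.0.16 (quasi-likelihood test, TMM, filterByExpr at a minimum count of 10) over 16507 genes, with Benjamini-Hochberg adjusted *p* and a threshold of 0.05. The models held sex and linetype, or sex and line. DESeq2 1.42.0 and limma 3.58.1, the latter on log2(RPKM + 1) and log2(RPKM + 0.1), were alternatives. Log2 CPM used a prior count of 2. The steps were tested on simulated data. Libraries of 1 group were compared for duplicates and none was found: their chi-square divided by degrees of freedom, which is near 1 for sampling noise, was at least 32.5. The depth per library left at least 12 reads for every tested member.

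Male and female libraries of a line share its number. After group means were removed, their correlations across genes were 0.321 to 0.708, each best with its own line, so the numbers pair them. The main test of sex held linetype and did not use this pairing. Line was used as a block in an alternative test of sex.

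Gene models are from GENCODE M21 and promoter sequences from RefSeq (GRCm38.p6). Named were all members, *Omp*, *Gnao1*, *Trpc2* and up to 5 further V2R neuron genes with the smallest adjusted *p* among lines, the 3 genes most alike to each member, and the nearest tested gene on each side. The members and lists were chosen with earlier results of these data known.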

Additional observations from a re-analysis of the deposited data

Results flagged for a closer look

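In each linetype and sex, the 4 lines were screened for a highest or lowest value whose gap to the next, as a share of the range, exceeds the critical value of Dixon's test, on log2 CPM. Of 32 sets of 4, 12 met it, and chance alone gives about 1 in 20 for independent sets. The sets of both sexes share their lines, and the screen was not run over all genes, so the count is a description. All 12 were libraries of Control line 1 or HR line 3.

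For *Vmn2r19* the library of line 1 stood low in Control males (log2 CPM 0.24, others 3.53 to 3.96), and that of line 3 stood low in HR males (-0.27, others 3.80 to 4.29) and HR females (-0.05, others 4.03 to 4.33). For *Vmn2r23* line 1 stood high in Control males (5.15, others -0.47 to 0.22) and line 3 in HR males (3.51, others 0.53 to 0.68) and HR females (4.04, others -0.03 to 0.44).

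For *Vmn2r25* line 1 was low in Control males (4.17) and Control females (4.38), and line 3 in HR males (3.43) and HR females (4.07). *Vmn2r20* was high in Control females of line 1 (5.29, others 4.67 to 4.73). *Vmn2r22* was low in HR females of line 3 (2.94, others 3.69 to 3.77).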

How the results depend on the processing

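The count of members called between HR and Control lines was 0 under all 17 alternatives, and that among lines was 7 to 8 under all 31. The 29 calls of a member in 1 line against the others, which are not independent of each other, became 30 with DESeq2 size factors and 28 without the filter. No pair of neighbours in the order of levels passed under 9 alternatives, where a single pair could not pass with 8 lines or fewer. Leaving out lines or libraries gave 0 members called between linetypes or by sex, 7 to 8 among lines and 0 pairs in the order. By sex, 1 member was called with the replicate block and 2 by the exact sign-flip test, which is not adjusted over genes and was run on members only. The block changed no other call of a member. DESeq2 gave no adjusted *p* for *Vmn2r23* between linetypes or by sex. On log2(RPKM + 1), a scale that understates low genes, the range over lines was 2.64 for *Vmn2r19*, 3.69 for *Vmn2r23* and 0.87 for *Vmn2r27*, each still called.

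Differences that were not called changed sign in some alternatives, and the cause was not tested. For HR minus Control (log2), in females alone *Vmn2r22* was -0.0257 and *Vmn2r24* 0.0279, and in males alone *Vmn2r27* was -0.0464. Without each line in turn the ranges were -0.0773 to 0.72 for *Vmn2r19*, -0.0229 to 0.34 for *Vmn2r20*, -0.0136 to 0.23 for *Vmn2r22*, -3.01 to 2.18 for *Vmn2r23*, -0.19 to 0.22 for *Vmn2r24*, -0.0589 to 0.37 for *Vmn2r26* and -0.13 to 0.36 for *Vmn2r27*. For female minus male, *Vmn2r20* was -0.01 without the block, 0.0319 with the replicate block, 0.0843 on log2(RPKM + 1) and 0.0938 on log2(RPKM + 0.1). Without each line in turn it was -0.0507 to 0.0766, *Vmn2r22* -0.0743 to 0.0183, *Vmn2r23* -0.0265 to 0.35 and *Vmn2r27* -0.0272 to 0.0796. The division of RPKM by the share of unique words was chosen after seeing the data.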
